A study of Mus musculus with 40 samples.

Results

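A set of 7 genes of conjugation and epoxide breakdown was followed in mice after small bowel resection (SBR), with and without the gut-restricted liver X receptor (LXR) agonist WUSTL0717. They were taken by name from a table of 15958 genes: the microsomal epoxide hydrolase *Ephx1* and the 6 UDP-glucuronosyltransferases *Ugt1a1*, *Ugt1a9*, *Ugt2a3*, *Ugt2b5*, *Ugt2b34* and *Ugt2b36*, and all 7 were found. The genes were chosen by measured values in these libraries, *Ugt1a9* and *Ephx1* for their region-dependent response to the drug in the intestine, and *Ugt2a3* for its low level in the resected ileum. Values of the 7 genes in those intestinal contrasts are therefore given as a description, and tests are given only for the 3 liver contrasts and, for genes whose libraries there did not serve the choice, for duodenum after SBR and for the 2 regions of sham mice.

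All mice were wild type C57BL/6 males operated on at 8 weeks of age. Sham vehicle mice had their bowel cut and rejoined and received vehicle, SBR vehicle mice lost part of the small bowel and received vehicle, and SBR WUSTL0717 mice had the same resection and received 30 mg/kg of the agonist daily for 7 weeks from week 3 after surgery. Tissue was taken at 10 weeks. No sham group received WUSTL0717, so the drug was seen only on top of resection, and every group had surgery and daily dosing. RNA sequencing covered duodenum (3 sham, 4 SBR vehicle and 4 SBR WUSTL0717 libraries), post-anastomotic ileum (3, 4 and 4) and liver (5, 8 and 5), which makes 40 libraries. Nothing in the labels says which libraries of different tissues came from the same mouse.

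Glucuronosyltransferases sit in the membrane of the endoplasmic reticulum and join glucuronic acid, taken from UDP-glucuronic acid, to lipophilic compounds such as bilirubin, bile acids, steroid hormones and drugs, which makes them soluble enough to be exported into bile or urine. The microsomal epoxide hydrolase opens reactive epoxides, left by cytochrome P450 enzymes, to diols that can then be conjugated. Enterocytes and hepatocytes are the main sites of both reactions, and many of these genes are known targets of the xenobiotic receptors PXR, CAR and AHR, of NRF2 and, for some, of PPARα.

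*Ephx1* lies on chromosome 1 (chr1:180976210-181020904, minus strand, GRCm38, GENCODE M21), with 96.3% of its exonic bases in no other gene. *Ugt1a1* (chr1:88211959-88218997) and *Ugt1a9* (chr1:88070800-88218997) lie on the plus strand of the same chromosome in the Ugt1a locus, in which each gene has its own first exon and all use common later exons. Of the exonic bases, 41.1% of *Ugt1a1* and 40.1% of *Ugt1a9* belonged to that gene alone, and the rest was shared with 8 other Ugt1a genes. Reads in shared exons cannot be given to a gene by position, so values of the Ugt1a genes depend on how these reads were handled. The other genes lie on the minus strand of chromosome 5, *Ugt2b34* at chr5:86889767-86906937, *Ugt2b36* at chr5:87065927-87092555, *Ugt2b5* at chr5:87124960-87140318 and *Ugt2a3* at chr5:87324972-87337195. They share no exonic bases with another annotated gene on their strand, but the Ugt2b genes are close paralogs, and reads that fit several of them are uncertain.

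Promoters are shown for the 4 genes with the largest mean differences between treated and vehicle duodenum and for *Ugt2a3*, from RefSeq on GRCm38.p6, as 250 bases before and 50 bases after the start site, 5′ to 3′ on the gene's strand. All 7 genes had an entry. Capitals mark matches, on either strand, to the nuclear receptor hexamers AGGTCA and AGTTCA, to TGACNNNGC (the NRF2 core), to GCGTG (the AHR core) and to GTTAAT (a part of the HNF1 site).
Ephx1 (chr1:181017520-181017819, minus strand): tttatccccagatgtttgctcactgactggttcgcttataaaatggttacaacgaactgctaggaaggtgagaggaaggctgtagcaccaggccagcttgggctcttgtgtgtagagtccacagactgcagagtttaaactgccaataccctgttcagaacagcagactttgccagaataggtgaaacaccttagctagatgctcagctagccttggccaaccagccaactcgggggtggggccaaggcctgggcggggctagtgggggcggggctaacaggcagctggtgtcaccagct
Ugt1a9 (chr1:88070529-88070828, plus strand): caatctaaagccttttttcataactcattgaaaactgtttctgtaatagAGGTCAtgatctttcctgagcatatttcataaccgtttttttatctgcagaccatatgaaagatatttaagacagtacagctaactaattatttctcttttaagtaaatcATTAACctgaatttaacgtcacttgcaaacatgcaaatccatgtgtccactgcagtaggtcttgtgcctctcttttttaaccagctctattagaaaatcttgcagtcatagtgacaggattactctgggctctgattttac
Ugt2b5 (chr5:87140291-87140590, minus strand): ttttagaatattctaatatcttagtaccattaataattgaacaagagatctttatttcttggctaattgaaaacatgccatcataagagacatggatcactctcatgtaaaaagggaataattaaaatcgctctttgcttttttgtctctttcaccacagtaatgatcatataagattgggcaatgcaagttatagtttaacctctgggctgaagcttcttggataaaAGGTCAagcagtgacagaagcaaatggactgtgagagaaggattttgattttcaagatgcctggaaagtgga
Ugt2b36 (chr5:87092506-87092805, minus strand): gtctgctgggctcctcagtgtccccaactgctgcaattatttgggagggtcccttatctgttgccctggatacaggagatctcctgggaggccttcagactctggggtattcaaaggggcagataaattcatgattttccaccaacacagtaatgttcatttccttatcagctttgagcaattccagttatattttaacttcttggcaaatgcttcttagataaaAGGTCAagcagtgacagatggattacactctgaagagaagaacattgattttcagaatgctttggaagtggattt
Ugt2a3 (chr5:87337146-87337445, minus strand): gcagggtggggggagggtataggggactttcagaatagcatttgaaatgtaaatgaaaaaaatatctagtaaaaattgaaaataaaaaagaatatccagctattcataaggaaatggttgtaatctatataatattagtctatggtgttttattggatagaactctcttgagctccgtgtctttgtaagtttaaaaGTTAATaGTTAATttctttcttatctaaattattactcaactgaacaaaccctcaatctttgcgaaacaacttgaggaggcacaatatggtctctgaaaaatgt

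AGGTCA was present in 3 of the 7 promoters, those of *Ugt1a9*, *Ugt2b5* and *Ugt2b36*, and in 16.3% of 32817 promoters of the same length. In *Ugt1a9* it began at position -201 from the start site, in *Ugt2b5* at -22 and in *Ugt2b36* at -25. In the last 2 it lay in a run of 24 bases that both promoters share, gataaaAGGTCAagcagtgacaga. GTTAAT was present in 3 of 7, with 2 copies at -54 and -47 in *Ugt2a3*, against 7.1% of all promoters, and AGTTCA was present in *Ugt1a1* only, at -162, against 4594 of the 32817 promoters. TGACNNNGC (12.4% of all promoters) and GCGTG (32.4%) matched in 0 of the 7 windows, and the *Ephx1* window held none of the 5 motifs. That window lies inside the annotated gene, which extends upstream to chr1:181020904, and sequence at that end was not scanned. A match describes letters in this window and is not a measured binding site.

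Values are the deposited log2 TPM, a transcript abundance scaled for gene length and library total, after batch correction. The labels put all intestinal libraries in batch 1 and all liver libraries in batch 2. The methods state that batch effects between experimental groups were removed, without naming the batches, and 99.4% of all genes had means in liver and intestine within 1 log2 unit in the deposited values, so that levels were compared within the intestine or within the liver only. The spread was also much smaller in liver, for *Ugt2b34* an SD of 0.24 over all liver libraries against 1.24 over all intestinal ones, so the size of a liver difference cannot be set against an intestinal one. On the linear TPM scale, the 10 most abundant genes took 32.6% to 64.1% of a library's total in duodenal, 18.7% to 34.5% in ileal and 21.7% to 52.1% in liver libraries. The number of reads is unknown, so the precision of low values such as those of *Ugt1a9* in ileum is also unknown. No listed marker of hepatocytes, enterocytes or other cell types was at 0 throughout a tissue, so the markers check the regions but cannot check liver against intestine. Marker sums were added up from the corrected values on the linear TPM scale. A correction that shifts genes also sets the level of a sum and the weight of each gene in it. These sums are therefore compared within the intestine or within the liver only, and are not amounts of RNA. In sham mice, 4 of 4 ileal enterocyte markers were called lower and 3 of 4 proximal enterocyte markers called higher in duodenum than in ileum.

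The question of the first comparison was how these genes differ along the normal small bowel. In sham mice, duodenum had higher *Ephx1*, *Ugt1a9* and *Ugt2b5* and lower *Ugt2b36* than ileum. *Ugt2b5*, an enzyme of the steroid-conjugating Ugt2b branch, was at 4.94, 5.32 and 4.37 in the 3 duodenal libraries and at 3.09, 3.49 and 3.03 in the 3 ileal ones. Every duodenal library was above every ileal one, and the difference was 1.68 (SE 0.44, limma adjusted p = 0.0142). *Ugt2b36* went the other way, with 2.87, 2.86 and 2.07 in duodenum and 4.89, 5.04 and 3.69 in ileum, a difference of -1.94 (SE 0.60, limma adjusted p = 0.034). *Ephx1* was at 6.43, 6.73 and 6.54 against 5.02, 5.40 and 5.09, a difference of 1.40 (SE 0.43, limma adjusted p = 0.0332). *Ugt1a9* was at 1.94, 3.29 and 3.23 against 1.65, 1.32 and 1.71, a difference of 1.26 (SE 0.36, limma adjusted p = 0.0213). In none of these 4 genes did the regions overlap, where 7.13% of all tested genes were higher and 30.8% lower in every duodenal library, and the lowest duodenal *Ugt1a9* value lay just above the ileal ones.

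*Ugt1a1*, the bilirubin-conjugating enzyme, differed by -0.69 (SE 0.70) and *Ugt2b34* by 0.65 (SE 0.61), with overlapping libraries and limma adjusted p-values of 0.507 and 0.466. *Ugt1a1* was at -0.21 without ileum sham 2 and -0.23 without duodenum sham 1, and *Ugt2b34* at 0.15 without ileum sham 3, 0.18 without duodenum sham 2 and 1.14 without duodenum sham 3. *Ugt2a3*, whose sham ileum libraries served its choice, differed by 0.24. So 3 of the 7 genes were called higher and 1 lower in duodenum, where 3.83% of 15923 tested genes were called higher and 10.8% lower. An exact permutation test of 3 against 3 libraries cannot give a p below 0.1, and the 4 called genes reached that value. The calls rested on few libraries. *Ephx1* lost its call without any 1 of the 6 libraries (limma adjusted p 0.0654 to 0.0899), and *Ugt2b36* without any but ileum sham 3 (0.0554 to 0.135). The call for *Ugt1a9* was lost without ileum sham 2, duodenum sham 2 or duodenum sham 3 (0.0851 to 0.0943), and that for *Ugt2b5* without ileum sham 3 or duodenum sham 2 (0.0517 and 0.0636). The median of all genes was -0.52 in this comparison. With each library centred on its median, *Ugt2b36* was at -1.48 (limma adjusted p = 0.11), while *Ephx1* (1.85), *Ugt1a9* (1.71) and *Ugt2b5* (2.13) stayed called, beside 7.39% of all tested genes called higher and 5.29% lower when centred. *Ugt2b36* also lost its call with 4 added before log2 (-1.44, limma adjusted p = 0.0559). By the unmoderated two-sample test *Ugt1a9* (adjusted p = 0.18), *Ugt2b5* (0.0648) and *Ugt2b36* (0.109) were not called. With a replicate block *Ephx1* was not called (limma adjusted p = 0.0562).

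The other Ugt genes and their partners were also unequal between the regions. Of 12 other Ugt genes tested, 8 were called higher and 1 lower in duodenum, led by *Ugt1a7c* at 1.63 (limma adjusted p = 0.000135) and *Ugt1a5* at 2.37 (0.000365). The remaining higher ones were *Ugt1a6b* (2.00), *Ugt2b38* (2.34), *Ugt2b35* (2.38), *Ugt1a2* (1.20), *Ugt1a8* (0.69) and *Ugt1a6a* (0.94), and the lower one was *Ugt2b1* at -1.80 (limma adjusted p = 0.0332). *Ugdh*, which makes UDP-glucuronic acid, was higher in duodenum by 1.68 (limma adjusted p = 0.00277), and *Ephx2*, the soluble epoxide hydrolase, by 2.7 (0.000675). Glutathione transferases, the other large conjugating family, had 13 of 20 called higher and 2 lower, with *Gsta4* at 4.27, *Gsta1* at 4.45 and *Gstm7* at 2.96. Among exporters of conjugates, *Abcc3*, which exports glucuronides across the basolateral membrane, was higher in duodenum by 2.05, and *Abcb1a* (-1.81), *Abcg2* (-1.34) and *Abcc4* (-1.21) were lower. Sulfotransferases had 1 of 6 called, *Sult1c2* at 3.06. All of these calls are limma's with Benjamini-Hochberg adjustment, and all lists together had 30 genes called higher and 11 lower of 82 tested, beside 3.83% and 10.8% of all genes.

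Exocrine pancreas markers moved with region, since 5 of 5 listed in the table were called higher in sham duodenum. Their summed level was 82.2 to 1163 TPM in sham duodenum and 2.47 to 2.56 TPM in sham ileum, and their part in the differences of the 7 genes was not tested. Absorptive enterocyte markers, 7 of 7 in the table, summed to 281 to 469 TPM in sham duodenum and 1329 to 1730 TPM in sham ileum, with 1 called higher and 4 lower. Their differences had a median of -1.26 and ran from -3.96 to 2.19, and the fatty acid binding protein gene *Fabp2* had means of 5.82 and 9.78. In whole tissue, fewer cells of a type and less RNA per cell cannot be told apart.

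The next comparison asked what resection did to the duodenum, upstream of the removed bowel. No gene in the duodenum passed the limma test after SBR (0% of 15093 called higher and 0% called lower, 2426 at an unadjusted p under 0.05), so the 7 genes have values but no call. The 4 SBR vehicle libraries are also the baseline of the drug contrast that chose *Ephx1* and *Ugt1a9*, and these genes are described here without a test. *Ugt2b5* was at 6.39, 6.42, 6.89 and 5.87 after SBR and at 4.94, 5.32 and 4.37 in sham mice. All 4 SBR libraries were above all sham libraries (difference 1.51, SE 0.44, limma adjusted p = 0.271, exact permutation p = 0.0286, the smallest for 4 against 3). *Ephx1* was at 5.90, 5.23, 5.17 and 4.99 after SBR and at 6.43, 6.73 and 6.54 in sham mice, with all SBR libraries below (difference -1.24). *Ugt1a1* was at 4.61, 3.53, 6.55 and 4.38 against 2.44, 3.73 and 3.97, with overlap (difference 1.39, SE 0.63, limma adjusted p = 0.309, exact permutation p = 0.143).

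Thus 1 of 7 genes was higher and 1 lower in every SBR library, where 3.41% and 6.24% of all tested genes were. *Ugt2a3* differed by 0.30 (SE 0.47), *Ugt2b36* by 0.56 (SE 0.65) and *Ugt2b34* by 0.72 (SE 0.62), with limma adjusted p-values of 0.75, 0.664 and 0.546, and *Ugt1a9* differed by 0.19. The median gene differed by -0.36 after SBR. With each library centred on its median, *Ugt2b5* was higher by 1.92 (limma adjusted p = 0.0709) and *Ephx1* was at -0.84. Of the 82 other conjugation and receptor genes, 0 were called by limma, 59 had positive differences, and the list median was 0.33.

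Single libraries set the size of the smaller differences in the duodenum. *Ugt1a1* was at 0.79 without SBR vehicle 3 and 0.92 without sham 1, and over the libraries left out *Ugt2b34* ran from 0.23 (without sham 3) to 1.2 (without sham 2), *Ugt2a3* from 0.05 (without SBR vehicle 3) to 0.56 (without sham 2) and *Ugt2b36* from 0.26 (without SBR vehicle 3) to 0.88 (without SBR vehicle 4). Cell type markers differed between the same groups, though limma called none of them. The 5 exocrine pancreas markers in the table all had lower means after SBR (median difference -1.73, sums of 20.5 to 763 TPM against 82.2 to 1163 TPM). Absorptive enterocyte markers summed to 482 to 585 TPM after SBR and 281 to 469 TPM in sham mice, without overlap. *Fabp2* had the largest difference of that list, 1.86, while the list median was 0.26 and *Epcam* was at -0.15. Hepatocyte markers had a median difference of -0.12, with *Ttr* at -2.42 and *Alb* at -0.83 and the other 4 between -0.18 and 0.10. Markers of goblet, Paneth and enteroendocrine cells had a median difference of -0.71, and immune cell markers one of -0.49. Their part in the differences of the 7 genes was not tested.

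In the treated duodenum the means of all 7 genes were above those of the vehicle duodenum after SBR, without overlap of libraries in *Ephx1*, *Ugt1a9* and *Ugt2b5*. This contrast chose *Ephx1* and *Ugt1a9*, so no test is given. *Ephx1* was at 9.57, 8.10, 8.93 and 9.78 with WUSTL0717 against 5.90, 5.23, 5.17 and 4.99 with vehicle, a mean of 9.09 ± 0.76 (SD, n = 4) against 5.32 ± 0.40 (SD, n = 4), or 13.7-fold. The lowest treated library stood far above the highest vehicle library, and above every sham library as well. *Ugt1a9* was at 5.59, 5.13, 5.89 and 5.59 against 2.52, 3.57, 2.55 and 3.41, a log2 difference of 2.54. *Ugt2b5* was at 8.74, 8.46, 9.42 and 8.26 against 6.39, 6.42, 6.89 and 5.87, a difference of 2.33.

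*Ugt2b36* was at 4.77, 5.43, 6.87 and 3.84 with drug and 3.22, 3.18, 4.05 and 2.18 with vehicle, a difference of 2.07. The lowest treated library lay under the highest vehicle library. *Ugt2b34*, at 7.66 to 9.28 against 6.26 to 8.22, differed by 1.38, *Ugt1a1*, at 5.23 to 5.89 against 3.53 to 6.55, by 0.75, and *Ugt2a3*, at 5.80 to 7.22 against 5.42 to 6.63, by 0.74, all with overlap. The *Ugt1a1* difference was 0.34 without vehicle library 2 and 1.34 without vehicle library 3. Over all tested genes, 2.11% were higher and 1.05% lower in every treated library. Against sham, the treated duodenum had 6 of the 7 genes higher in every library, with differences of 2.53 for *Ephx1*, 2.73 for *Ugt1a9*, 3.84 for *Ugt2b5* and 2.14 for *Ugt1a1*, and only *Ugt2a3* (1.05) overlapped. Over all tested genes, 5.58% were higher and 12.8% lower in every treated library than in sham. Absorptive enterocyte markers summed to 630 to 1540 TPM against 281 to 469 TPM in sham, without overlap. Of these, 1 of 7 was called higher (*Fabp2*, difference 3.45, limma adjusted p = 0.0348), and the list median was 0.24. Immune cell markers had a median difference of -0.87 with 0 called. The part of these markers in the differences of the 7 genes was not tested.

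**Figure D1:**
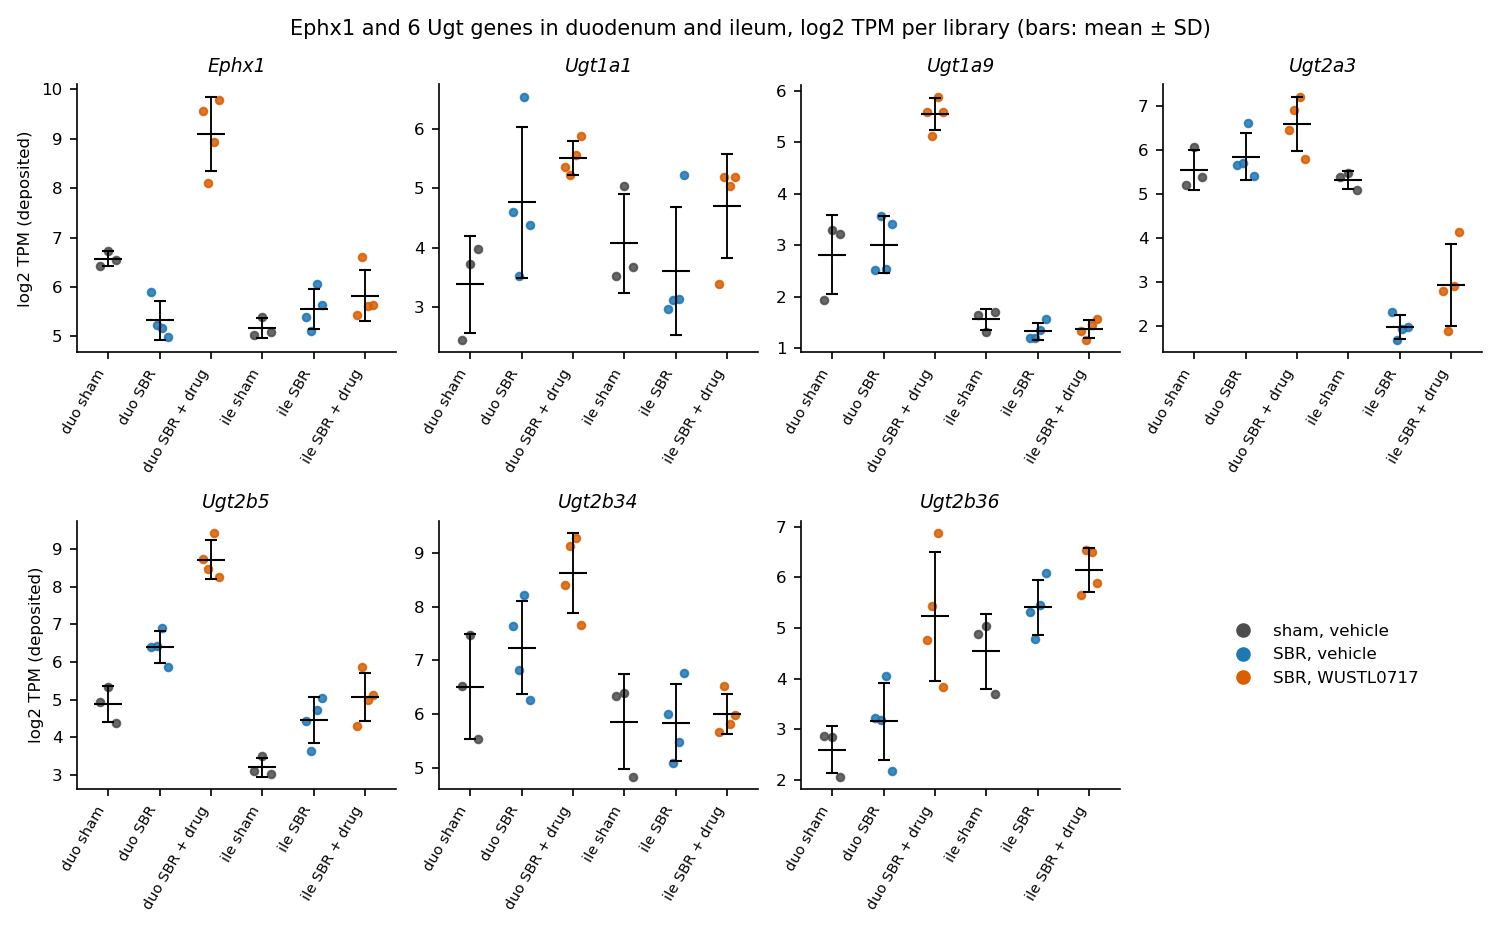
Log2 TPM (vertical axis) of *Ephx1* and 6 Ugt genes in each of the 22 intestinal libraries, by region and group, with the mean and SD as bars. *Ephx1*, *Ugt1a9* and *Ugt2b5* stand highest in the treated duodenum, and *Ugt2a3* has means of 1.98 in SBR vehicle and 2.93 in SBR WUSTL0717 ileum against 5.32 in sham ileum.

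Other genes of the lists were read in the same contrast. Limma called 0.252% of 15093 genes higher and 0.00663% lower, and of the 82 list genes 4 higher and 0 lower, all known targets of PXR and CAR. They were *Ces2a*, a carboxylesterase (difference 3.83), *Cyp2c29* (3.48), *Cyp2c55* (3.01) and *Cyp2b10* (2.22), 3 cytochrome P450 genes. The lists were written with earlier results of these data known, so these calls are a description and no independent test of the list. Of the 12 other Ugt genes, 11 had positive differences and 0 were called, with a median of 0.92 and the highest value in *Ugt2b37* (1.79). Glutathione transferases were positive in 19 of 20 with a median of 0.95, and sulfotransferases had a median of 0.18. The median over all 15093 genes was 0.04.

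Exocrine pancreas markers also differed between these duodenal groups. The 5 of 6 listed markers in the table, none of them at 0 throughout, summed to 641, 404, 150 and 1352 TPM in the treated libraries and to 20.5, 763, 89.8 and 102 TPM in the vehicle libraries, with a median difference of 2.17. The treated library with the lowest pancreas marker sum (150 TPM) had *Ephx1* at 8.93, *Ugt1a9* at 5.89 and *Ugt2b5* at 9.42, and the vehicle library with the highest (763 TPM) had 5.23, 3.57 and 6.42. Absorptive enterocyte markers summed to 630 to 1540 TPM in treated and 482 to 585 TPM in vehicle libraries, carried by *Fabp2*, the intestinal fatty acid binding protein gene (8.31 to 10.26 against 6.95 to 8.29), while *Vil1* and *Epcam* had overlapping levels. Immune cell markers summed to 155 to 414 TPM against 338 to 1450 TPM. Their differences ran from -1.99 (*Cd74*) to 0.41 (*Lyz2*), with a median of -0.29 and 0 called. The part of cell makeup in these differences was not tested.

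**Figure D2:**
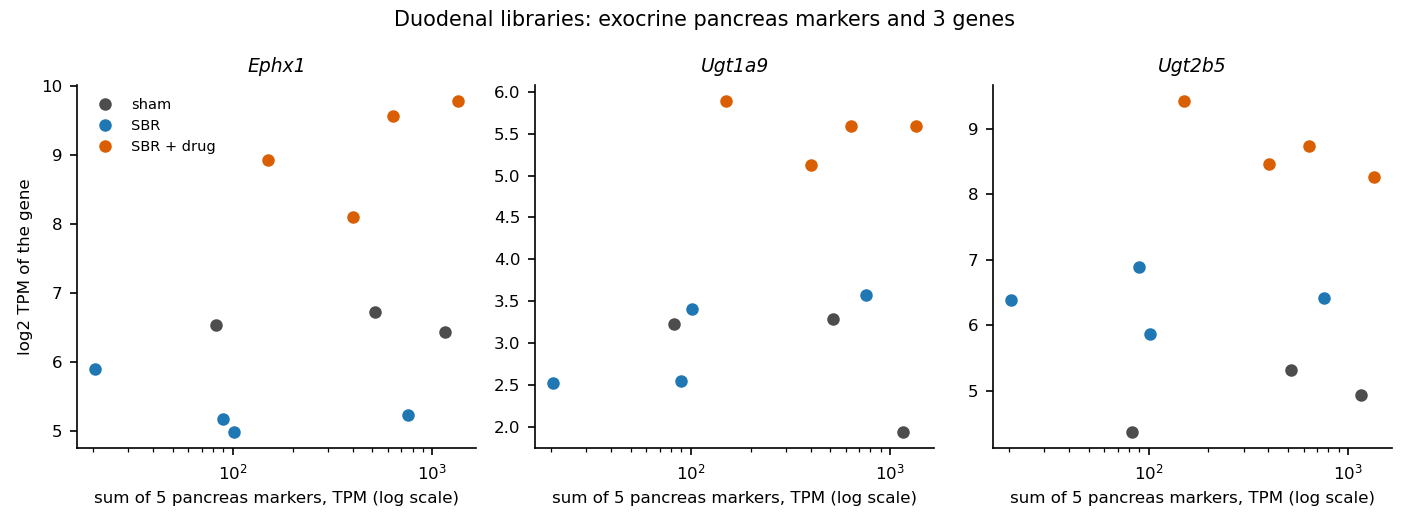
Log2 TPM of *Ephx1*, *Ugt1a9* and *Ugt2b5* (vertical axis) against the summed level of 5 exocrine pancreas markers (horizontal log axis, TPM) in the 11 duodenal libraries, with each point 1 library coloured by group. The 4 treated points lie above all vehicle points, but treated libraries span 150 to 1352 TPM and 3 of the 4 vehicle libraries lie at 20.5 to 102 TPM, and the part of pancreas RNA was not tested.

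In the ileum after resection, *Ugt2a3* was the gene farthest from its sham level. It was chosen for this contrast and is described without a test. *Ugt2a3* was at 2.33, 1.68, 1.93 and 1.98 after SBR and at 5.39, 5.48 and 5.09 in sham mice, a difference of -3.34 or 10.1-fold lower. The SBR libraries spanned less than 1 log2 unit and lay far under the sham libraries. In the duodenum of the same groups *Ugt2a3* was at 5.42 to 6.63 after SBR and 5.21 to 6.07 in sham mice. *Ugt2b5* was higher in every resected ileum, at 4.42, 3.62, 4.73 and 5.03 against 3.09, 3.49 and 3.03 (difference 1.25). The rest overlapped between the groups, with differences of 0.87 for *Ugt2b36*, 0.38 for *Ephx1*, -0.02 for *Ugt2b34*, -0.23 for *Ugt1a9* and -0.46 for *Ugt1a1*. Single libraries set the size of some, since *Ugt1a1* was at -1.0 without SBR vehicle 4 and 0.02 without sham 2, *Ugt2b34* ran from -0.52 to 0.25 over the libraries left out, *Ugt2b36* was at 0.44 without sham 3 and *Ephx1* at 0.21 without SBR vehicle 3. Every library was higher in 6.73% and lower in 2.77% of 15772 genes, and limma called 0.241% higher and 0.108% lower. Of 79 list genes tested, 0 were called, and the 10 other Ugt genes ran from -1.53 (*Ugt2b1*) to 0.68 (*Ugt2b35*).

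Ileal enterocyte markers (4 of 4 in the table, none at 0 throughout) summed to 413 to 510 TPM in resected and 134 to 164 TPM in sham ileum, with 2 called higher by limma. The 2 of 4 proximal enterocyte markers that passed the filter on low values went opposite ways, with *Gata4* lower (-2.15) and *Slc40a1* higher (1.48) in every resected library and 0 called. Absorptive enterocyte markers overlapped, at 1107 to 1748 TPM against 1329 to 1730 TPM. Immune cell markers had a median difference of -0.65 (from -0.89 to -0.38), with 0 called. Markers of goblet, Paneth and enteroendocrine cells had one of 0.01 (from -0.54 to 0.97, the highest in *Tff3*), with 0 called. The part of these markers in the *Ugt2a3* difference was not tested.

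In the ileum, differences between WUSTL0717 and vehicle were 0.05 to 1.09 in the 7 genes, all with overlap. *Ephx1* was at 5.44, 6.60, 5.62 and 5.64 with drug and 5.40, 5.10, 6.06 and 5.64 with vehicle, a difference of 0.27 beside the 3.77 of duodenum. *Ugt1a9* was at 1.33, 1.16, 1.46 and 1.56 against 1.20, 1.21, 1.35 and 1.56, a difference of 0.05 beside 2.54. In both genes the ileal groups overlapped. *Ugt2a3* was at 2.80, 1.88, 2.90 and 4.15 with drug, 0.95 above vehicle, and all treated libraries stayed below every sham library. *Ugt1a1* was at 3.39, 5.19, 5.05 and 5.20 against 2.97, 3.11, 3.13 and 5.23 (difference 1.09), with 1 vehicle library as high as the treated ones. *Ugt2b36* differed by 0.73, *Ugt2b5* by 0.62 and *Ugt2b34* by 0.16. Here too single libraries mattered, with *Ephx1* at 0.02 without treated library 2 and 0.44 without vehicle library 3, *Ugt2a3* at 0.55 without treated library 4, *Ugt2b5* at 0.35 without vehicle library 2, and *Ugt2b34* at -0.09 to 0.46 and *Ugt1a9* at -0.01 to 0.12 over the libraries left out.

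Limma called 0.0697% of ileal genes higher and 0% lower with the drug. Of 79 list genes 1 was called, the PXR and CAR target *Ces2a*, with a difference of 2.54 beside 3.83 in duodenum. Since the lists were written with earlier results known, this call too is a description. The PXR and CAR list as a whole had positive differences in 12 of 13 genes in each region, with medians of 0.83 in ileum and 1.27 in duodenum, while the other Ugt genes had medians of 0.05 and 0.92. Treated ileum against sham kept *Ugt2a3* lower in every library (-2.39) and had *Ugt2b5* (1.87), *Ugt2b36* (1.60) and *Ephx1* (0.66) higher in every library, beside 3.73% of all tested genes lower and 9.46% higher. Over the libraries left out this *Ephx1* difference ran from 0.4 to 0.79. Immune cell markers had median differences of -0.49 against vehicle, with 0 called, and -1.14 against sham, with 1 of 6 called lower (*Jchain*, -1.57), and summed to 324 to 1078 TPM in treated and 1319 to 1828 TPM in sham ileum. Against sham, ileal enterocyte markers had 2 of 4 called higher (median 1.29), and *Tff3* (1.34) of the goblet list and *Cyp2e1* (3.73) of the pericentral list were called higher. Their part in these differences was not tested.

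Across the 6 intestinal groups the order of mean levels differed by gene. *Ephx1* ran from 9.09 in treated duodenum, which overlapped no other group, through sham duodenum (6.56) to sham ileum (5.17), with neighbours below the first overlapping. *Ugt1a9* fell into 3 ranges without overlap, treated duodenum (5.55), the other duodenal groups (3.01 and 2.82) and all ileal groups (1.56, 1.38 and 1.33). *Ugt2b5* had treated duodenum (8.72) apart from all groups, SBR duodenum (6.39) just above the rest with its lowest library and the highest treated ileal library both rounding to 5.87, and sham ileum (3.20) apart at the bottom. *Ugt2a3* was at 5.32 to 6.60 in 4 groups with overlap, and at 2.93 and 1.98 in treated and vehicle SBR ileum. *Ugt1a1*, *Ugt2b34* and *Ugt2b36* had no neighbours without overlap. Between regions of the same group, duodenum minus ileum was -0.23 for *Ephx1* in SBR vehicle mice and 3.27 in treated mice, and for *Ugt1a9* it was 1.68 and 4.17. For *Ugt2a3* it was 3.88 and 3.67, for *Ugt2b5* 1.94 and 3.65, and for *Ugt2b36* -2.25 and -0.91. For *Ugt1a1* it was 1.15 and 0.81, and for *Ugt2b34* 1.39 and 2.62. The regions overlapped for *Ephx1*, *Ugt1a1* and *Ugt2b34* in vehicle mice and for *Ugt2b36* in treated mice. The share of all genes without overlap between regions was counted in sham mice only, where 7.13% were higher and 30.8% lower in every duodenal library.

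Likeness of pattern was measured as Pearson's r over the 22 intestinal libraries, each gene centred within its region, among 15923 genes. Libraries share group, depth and makeup, so these values are descriptions. Most like *Ugt1a9* were *Cyp4a31*, a fatty acid hydroxylase gene (r = 0.94), *Acot1*, an acyl-CoA thioesterase gene (0.92), and *Gstm4* (0.91). Most like *Ephx1* were *Decr2*, a peroxisomal dienoyl-CoA reductase gene (0.90), *Dhrs4* (0.89) and again *Acot1* (0.87). Most like *Ugt2a3* were *Rragd* (0.90), *Gimd1* (0.89) and *Slc23a1*, a vitamin C transporter gene (0.87). Among the 7 genes, *Ephx1* and *Ugt1a9* had r = 0.80, *Ugt2b5* had 0.71 with *Ephx1* and 0.72 with *Ugt1a9*, and *Ugt2a3* had 0.07 with *Ephx1*, 0.33 with *Ugt1a9* and 0.00 with *Ugt2b5*.

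The liver comparisons did not enter the choice of genes and are tested. How often liver genes in general lacked overlap between groups was not counted, so a lack of overlap in liver only describes the gene named. After SBR, liver had more *Ephx1* and *Ugt1a9* and less *Ugt2a3* and *Ugt2b36* than sham liver. *Ugt2a3* was at 5.90 to 6.45 (median 6.31) in the 5 sham livers and at 4.43 to 5.52 (median 5.15) in the 8 SBR livers. The groups did not overlap, and it fell by 1.18 on the log2 scale (SE 0.15, limma adjusted p = 5.5e-06, exact permutation p = 0.000777, the smallest for 8 against 5). *Ugt1a9* was at 2.37 to 2.82 in sham and 2.87 to 3.90 in SBR livers, again without overlap, and rose by 0.83 (SE 0.22, limma adjusted p = 0.00507, exact permutation p = 0.00233). *Ephx1* was at 6.00 to 6.89 in sham and 6.69 to 7.54 in SBR livers, with the lowest SBR library inside the sham range, and rose by 0.82 (SE 0.18, limma adjusted p = 0.00149, exact permutation p = 0.00311). *Ugt2b36* changed least of the called genes, from 5.49 to 5.93 in sham to 4.63 to 5.54 in SBR livers, a difference of -0.38 (SE 0.14, limma adjusted p = 0.0361, exact permutation p = 0.0249).

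So 2 of 7 genes were called higher and 2 lower, beside 37.4% and 4.47% of 15901 tested genes. *Ugt2b5* (-0.38, SE 0.17), *Ugt1a1* (-0.26, SE 0.15) and *Ugt2b34* (-0.02, SE 0.13) did not pass, with limma adjusted p-values of 0.0767, 0.177 and 0.908. The median gene was higher by 0.25 after SBR. With each library centred on its median, all 7 were called, with 2 higher (*Ephx1* at 0.51 and *Ugt1a9* at 0.53) and 5 lower (*Ugt2a3* at -1.49, *Ugt2b5* at -0.69, *Ugt2b36* at -0.68, *Ugt1a1* at -0.56 and *Ugt2b34* at -0.33), beside 20.4% of all tested genes called higher and 28.8% lower when centred. *Ugt2b36* lost its call without liver sham 3, liver sham 4 or liver SBR vehicle 3 (limma adjusted p 0.101, 0.0925 and 0.0574), with library weights (-0.20, limma adjusted p = 0.068) and by the unmoderated two-sample test (adjusted p = 0.0864), while the other 3 calls held without any single library.

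**Figure D3:**
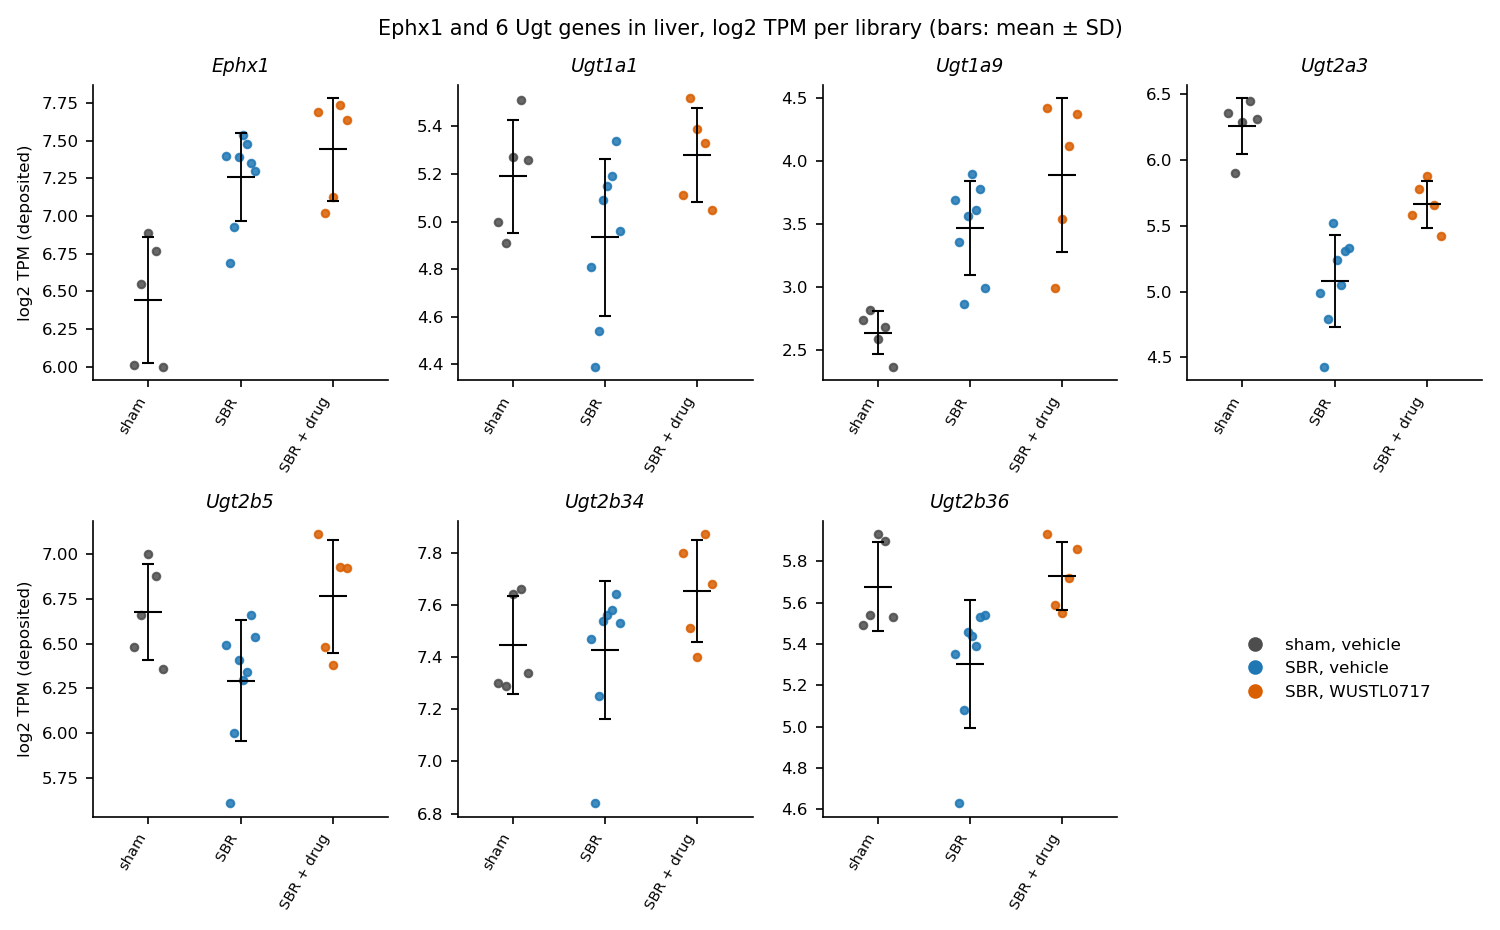
Log2 TPM (vertical axis) of *Ephx1* and 6 Ugt genes in the 18 liver libraries by group, with the mean and SD as bars. *Ugt2a3* is lower in all SBR livers than in sham livers and intermediate with WUSTL0717, and *Ugt1a9* is higher in all SBR livers than in sham livers. The share of all liver genes without overlap was not counted.

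With WUSTL0717, liver *Ugt2a3* was higher than with vehicle after SBR and still lower than in sham mice. It was at 5.58, 5.78, 5.88, 5.66 and 5.42 with the drug, and 4 of these 5 libraries lay above all 8 vehicle libraries. It rose by 0.58 (SE 0.15, limma adjusted p = 0.0346, exact permutation p = 0.00466). Against sham it was at -0.60 (SE 0.17, limma adjusted p = 0.0143, exact permutation p = 0.00794, the smallest for 5 against 5), without overlap. *Ugt2b36* was higher in every treated library, at 5.55 to 5.93 against 4.63 to 5.54, but did not pass (difference 0.43, SE 0.14, limma adjusted p = 0.0952, exact permutation p = 0.00622). *Ugt2b5* (0.47, limma adjusted p = 0.136), *Ugt1a9* (0.42, 0.346), *Ugt1a1* (0.35, 0.224), *Ugt2b34* (0.23, 0.395) and *Ephx1* (0.18, 0.701) had positive differences that did not pass. Over the libraries left out, *Ephx1* ran from 0.10 (without SBR vehicle 2) to 0.29 (without treated library 2), *Ugt2b34* from 0.14 (without SBR vehicle 2) to 0.29 (without treated library 3) and *Ugt1a9* from 0.29 (without treated library 1) to 0.64 (without treated library 2).

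Of the 7 genes, 1 was called higher and 0 lower with the drug, where 1.44% of all tested genes were called higher and 2.66% lower. Centring each library on its median gave 5 called higher (*Ugt1a1*, *Ugt2a3*, *Ugt2b5*, *Ugt2b34* and *Ugt2b36*), beside 11.5% of all tested genes called higher and 8.19% lower when centred, and the unmoderated two-sample test called 0. The *Ugt2a3* call was lost without any 1 of SBR vehicle 1, 3 or 6 or SBR WUSTL0717 1, 2 or 3 (limma adjusted p 0.0529 to 0.127), and its difference ran from 0.49 to 0.65 over all 13 such fits. Against sham, treated liver had *Ugt1a9* higher by 1.25 (SE 0.24, limma adjusted p = 0.00147) and *Ephx1* by 1.00 (SE 0.20, limma adjusted p = 0.00202), both above sham in every library. That made 2 of 7 called higher and 1 lower, beside 27.9% and 0.906% of all tested genes. The 3 liver comparisons share libraries and are not independent of each other.

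Of the other Ugt genes in liver, those called after SBR all fell. *Ugt2b1* (-1.21, limma adjusted p = 1.35e-06), *Ugt3a1* (-1.01, 8.35e-06), *Ugt3a2* (-0.76, 0.000124) and *Ugt2b38* (-0.76, 0.0194) were the 4 called of 12 tested, and 0 were called higher, beside 4.47% of all genes called lower and 37.4% higher. The share depends on scaling, since 28.8% of all genes were called lower and 20.4% higher with centred libraries, where these 12 were not counted. With the drug, where 1.44% of all genes were called higher, 3 of 12 were called higher, *Ugt3a1* (0.75, limma adjusted p = 0.00692), *Ugt2b1* (0.73, 0.00919) and *Ugt3a2* (0.59, 0.0175). Treated against sham liver had *Ugt1a7c* (0.64, limma adjusted p = 0.00319) and *Ugt1a8* (0.63, 0.00767) higher and *Ugt2b1* (-0.48, 0.0247) lower. *Ephx2*, the soluble epoxide hydrolase, fell by 0.60 after SBR (limma adjusted p = 0.00138) and rose by 0.53 with the drug (0.0321).

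Counts in the wider lists after SBR stand beside 37.4% of all liver genes called higher and 4.47% lower, and shares near these are no result about a list. *Ugdh* rose by 1.11 after SBR (limma adjusted p = 7.28e-05), *Slc35d1*, which carries UDP-sugars into the endoplasmic reticulum, by 0.52 (0.002) and *Gusb*, the beta-glucuronidase gene, by 0.37 (0.0208), while *Ugp2*, upstream of *Ugdh*, fell by 0.46 (0.0273). Of 6 exporters of conjugates, 4 were called higher after SBR and 0 lower, with *Abcc4* at 1.96, *Abcb1a* at 1.47 and *Abcc1* at 0.92. Glutathione transferases had 11 of 20 called higher and 2 lower, led by *Gstm3* (3.82), *Gsta1* (3.94) and *Gstm1* (1.30). NRF2 targets had 8 of 9 called higher, with *Gsta1*, *Srxn1* (2.57) and *Nqo1* (1.74) first by p. PXR and CAR targets had 6 called higher and 3 lower of 13, among them *Cyp3a11* at 1.61 and *Abcb1a*. AHR targets had 2 called higher and 1 lower of 5, with *Cyp1b1* at 1.32 and *Cyp1a2* at -0.58. Sulfotransferases had 1 called higher (*Sult2b1*, 0.47) and 3 lower of 6, with *Sult2a8* at -2.54. Among receptors and partners, *Nfe2l2*, which encodes NRF2, rose by 0.55 (limma adjusted p = 0.00192), *Nr1h2*, which encodes LXRβ, by 0.45 (0.00193) and *Keap1* by 0.36 (0.0111). In all, 33 of 82 list genes were called higher after SBR, a share near that of all genes, and 16 lower, 10 higher and 0 lower with the drug, and 32 higher and 3 lower in treated against sham liver.

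With the drug, *Sult2a8* rose by 1.73 (limma adjusted p = 0.000741), *Cyp2c29* by 0.63 (0.0214), *Ces2a* by 0.56 (0.0303) and *Cyp2b10* by 1.33 (0.0324), and the glutathione transferase genes *Gstk1* by 0.57 (0.0243) and *Mgst1* by 0.48 (0.0371). In treated against sham liver, 8 of 9 NRF2 targets and 4 of 6 exporters were called higher, beside 27.9% of all genes called higher and 0.906% lower.

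Cholangiocyte markers moved with resection in liver, with 5 of 5 called higher and none at 0 throughout. They summed to 67.1 to 168 TPM in sham, 365 to 746 TPM in SBR vehicle and 209 to 486 TPM in treated livers, and 4 of 5 were called lower with the drug. General hepatocyte markers had 2 of 6 called lower after SBR (*Serpina1a* at -0.78 and *Apoh* at -0.46, list median -0.43) and 0 called with the drug (list median 0.33). Periportal hepatocyte markers had 5 of 6 called lower after SBR and 3 of 6 called higher with the drug, pericentral ones 2 higher and 4 lower of 8 after SBR. Immune cell markers summed to 329 to 513 TPM in sham and 856 to 1512 TPM in SBR vehicle livers. The part of these cell types in the changes of the 7 genes was not tested. The library of SBR vehicle 7 stood out in exocrine pancreas markers. Their corrected values summed to 3140 TPM where the other liver libraries had 19.3 to 23.2. Without that library *Ugt2a3*, *Ephx1*, *Ugt1a9* and *Ugt2b36* stayed called after SBR.

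**Figure D4:**
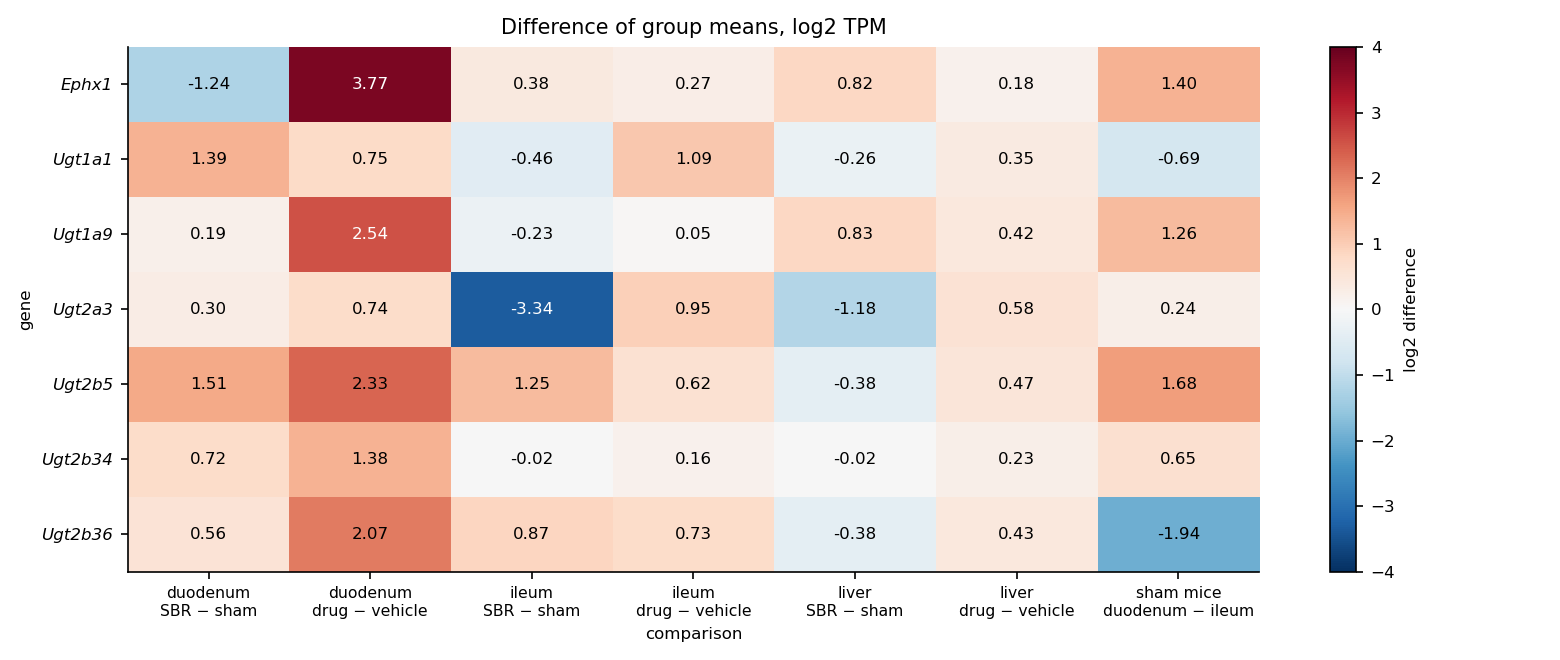
Differences of group means (log2 TPM, colour scale and printed values) of *Ephx1* and 6 Ugt genes (rows) in 7 comparisons (columns), SBR against sham and drug against vehicle in each tissue and sham duodenum against sham ileum. The 3.77 of *Ephx1* in treated duodenum and the -3.34 of *Ugt2a3* in resected ileum are the farthest from 0 among those shown, and liver and intestinal columns differ in spread and cannot be set against each other.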

How the data were processed

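RNA of duodenum, ileum and liver was sequenced after removal of ribosomal RNA. The authors aligned reads with STAR 2.7.9a and counted unambiguous reads on genes with featureCounts 2.0.3 (GRCm38, per the labels). They deposited a table of log2 TPM values for 40 libraries, after ComBat correction of batch effects that the methods place between experimental groups without naming the batches (the labels give batch 1 to intestine and batch 2 to liver), and 2752 values lie below 0. TMM factors were computed on the counts, and the sources do not say that the TPM values were scaled by them. The file holds no read counts, so the depth behind a value is unknown. Genes with a mean of at least 1 in a tissue were fitted with limma 3.58.1 (R 4.3.3, variance trend, all groups of a tissue, or all 6 intestinal groups for the regions), with Benjamini-Hochberg adjustment and calls at an adjusted p under 0.05. Single genes were also compared with exact two-sided permutation tests. The labels number replicates without saying that each is a separate animal, so p-values measure the spread between these libraries, which may be partly technical. Fits were tested on simulated data with 200 genes shifted by 2 log2 units, of which 40% (SBR against sham in duodenum, 15022 genes), 57.5% (sham regions, 15801 genes) and 99.5% (SBR against sham in liver, 15888 genes) were recovered. Alternatives were no filter, a filter at 3, 4 added before log2, median-centred libraries, an unmoderated two-sample test, library weights, a replicate block, an unadjusted p under 0.05 with a fold of at least 2, and leaving out each library. The 7 genes and all lists were chosen with earlier results of these data known. Named genes were the 7, in each comparison up to 3 called genes per list with the smallest p, the other called Ugt genes, and the 3 genes most like *Ugt1a9*, *Ephx1* and *Ugt2a3*. Further called genes of short lists, and single Ugt genes at the ends of a range, were named after their values were seen. Figures were drawn with matplotlib 3.10.9 in Python 3.11.15.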

Additional observations from a re-analysis of the deposited data

Results flagged for a closer look

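Over the 7 genes, 49 sets of 4 to 8 libraries of a group were looked at for a library far from the others, and 3 were found, where chance gives about 1 in 20. In treated ileum, *Ephx1* of replicate 2 was at 6.60 with the next library at 5.64. In vehicle-treated SBR ileum, *Ugt1a1* of replicate 4 was at 5.23 with the next at 3.13. In treated ileum, *Ugt1a1* of replicate 1 was at 3.39 with the next at 5.05.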

How the results depend on the processing

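Of 578 recomputed differences that were tested, 516 kept direction and call, 39 lost a call, 13 gained one and 10 turned sign, and of 501 in described comparisons 498 stayed within the spread of libraries. Adding 4 before log2 gave 2.06 for *Ugt1a9* with drug and 2.17 against sham in duodenum, and -2.46 for *Ugt2a3* in resected ileum. Centring libraries turned treated against sham liver to -0.21 for *Ugt1a1*, -0.21 for *Ugt2b5*, -0.10 for *Ugt2b34* and -0.25 for *Ugt2b36*. Library weights gave -0.08 for *Ugt2a3* and -0.15 for *Ugt2b34* after SBR in duodenum and 0.13 for *Ugt2b34* in liver. Leaving out libraries in turn gave -0.25 to 0.43 for *Ugt1a9* in duodenum (negative without sham 1), -0.06 to 0.06 for *Ugt2b34* in liver (positive without sham 3, sham 4 or SBR vehicle 2) and -0.02 to 0.41 for *Ugt2a3* between regions (negative without duodenum sham 2). The causes were not tested.

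Of the 7 genes, calls after SBR in duodenum went from 0 to 1 with weights, *Ephx1*, and 3 with an unadjusted p under 0.05 and a fold of at least 2 (*Ephx1*, *Ugt1a1* and *Ugt2b5*), where *Ephx1* is no test because its libraries served its choice. In liver after SBR they went from 4 to 7 when centred, 1 by the fold rule and 3 by the two-sample test and with weights, both without *Ugt2b36*. With the drug in liver they went from 1 to 5 when centred, 3 with weights and 0 by the two-sample test and by the fold rule, with 0 to 1 when leaving out libraries. Against sham in liver they went from 3 to 4 with weights, which added *Ugt2b34* (0.27), and 2 by the fold rule. Between regions they went from 4 to 1 by the two-sample test, to 3 with 4 added before log2 (without *Ugt2b36*) and 0 to 2 when leaving out libraries.

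Of the 82 list genes (79 in ileum), calls after SBR in duodenum went from 0 to 4 when centred, 10 with weights, 14 by the fold rule and 0 to 6 when leaving out libraries. With the drug in duodenum they went from 4 to 1 by the two-sample test, 11 with weights, 26 by the fold rule and 2 to 4 when leaving out libraries. In ileum after SBR they went from 0 to 2 with the filter at 3, 2 when centred, 4 with weights, 10 by the fold rule and 0 to 1 when leaving out libraries, and with the drug from 1 to 0 by the two-sample test and 8 by the fold rule. In liver after SBR they went from 49 to 18 by the fold rule. With the drug in liver they went from 10 to 33 when centred, 27 with weights, 0 by the two-sample test, 2 by the fold rule and 3 to 17 when leaving out libraries. Against sham in liver they went from 35 to 53 with weights and 12 by the fold rule, and between regions from 41 to 20 by the two-sample test.

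Replicate numbers were not taken as pairs, since not every correlation of a tissue was above 0.1, and no label ties numbers to mice. Deviations of same-numbered libraries correlated at -0.3 to 0.33 in duodenum, -0.32 to 0.24 in ileum, -0.2 to 0.17 in liver and at 0.36, 0.07 and 0.45 in the 3 sham pairs of duodenum and ileum, where a shared mouse remains possible. With a replicate block, list calls with the drug were 2 in duodenum and 0 in ileum, *Ugt2b5* was called after SBR in liver (limma adjusted p = 0.0392), and between regions, where the numbers may pair, *Ephx1* was no longer called (limma adjusted p = 0.0562).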
